A study of Mus musculus with 12 samples.

Results

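The nuclear genes that encode subunits of respiratory complex I were followed in the lumbar spinal cord of MFN2 and WT mice. Protein-coding mouse genes whose symbol starts with Ndufa, Ndufb, Ndufc, Ndufs or Ndufv were matched by Ensembl ID, which gave 46 genes among the 49548 in the count files. Of these, 36 encode subunits, 7 core and 29 accessory. The other 10 carry the name but are not subunits of the mature complex: Ndufa4 and Ndufa4l2, which belong with complex IV, and the 8 assembly factors Ndufaf1 to Ndufaf8. Ndufb1-ps was not analysed here. MFN2 mice (n = 8) are hemizygous MitoCharc1 animals of a B6;D2 stock that carry the allele Tg(Eno2-MFN2*R94Q)L51Ugfm, in which a rat Eno2 promoter directs a human R94Q MFN2 transgene mainly to neurons while both copies of mouse Mfn2 remain. WT mice (n = 4) are labelled C57BL/6 and described by the study as littermates. All mice were 30 days old and untreated, and each gave 1 library of bulk RNA from the lumbar spinal cord, so that fewer cells of a type and less RNA per cell cannot be told apart. Total counts ran from 19359454 to 26738930 in MFN2 libraries and from 19453238 to 23564568 in WT libraries.

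Libraries carry the numbers 41 to 43 and 72 to 76 (MFN2) and 44 to 47 (WT). The numbers 72 to 76 hold MFN2 mice alone, so there the number run and the genotype cannot be told apart. MFN2 library 43 stood apart from the rest. The summed level of 9 forebrain markers, led by Camk2a, was 3766 CPM (counts scaled to the effective library size) in it and 101 to 202 CPM in the other 11 libraries, and each of the 9 genes was highest there. Emx1, which helps to define the forebrain, was at 0 in some of the other libraries. All 6 caudal Hox genes, which mark the spinal cord, were lowest in library 43, with a sum of 35.2 CPM against 202 to 275 CPM elsewhere. The 6 motor neuron markers, led by Prph, summed to 35.5 CPM against 154 to 370 CPM, and the 6 oligodendrocyte markers to 8133 CPM against 21100 to 33950 CPM. Hox and motor neuron genes thus fitted the labelled tissue in 11 libraries and were low in library 43.

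Complex I takes electrons from NADH at the tip of an arm that reaches into the mitochondrial matrix, passes them along iron-sulfur clusters to ubiquinone, and couples this to the pumping of protons across the inner membrane. The core subunits, which carry the flavin, the clusters and the proton channels, are shared with bacteria. Those of the membrane arm are encoded in mitochondrial DNA and were not analysed here, so the nuclear core genes are all of the matrix arm. Accessory subunits surround the core, and most are needed for its assembly or stability. Neurons with long axons, such as the motor neurons of this cord segment, rely heavily on oxidative phosphorylation.

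All 36 subunit genes were expressed above the filter of 1 CPM in at least 3 libraries, and the lowest value of any subunit in any library was 10.6 CPM (Ndufb2 in library 43). Levels between genes were set side by side per kilobase of merged annotated exons. In WT mice the highest accessory levels were those of Ndufb9, a subunit at the end of the membrane arm, at 120 ± 5.73 CPM per kilobase (SD, n = 4), Ndufa13 (also known as GRIM-19) at 114 ± 14.1, and Ndufb10 at 111 ± 11.3. The lowest were Ndufa7 at 10.4 ± 0.430, Ndufb4 at 6.81 ± 0.695 and Ndufb2 at 2.65 ± 0.247 CPM per kilobase. Neighbours in this order were seldom separate: in 30 of 35 neighbouring pairs the WT libraries overlapped, and the 5 gaps lay between Ndufs8 and Ndufc1, Ndufs3 and Ndufv3, Ndufb5 and Ndufb7, Ndufa7 and Ndufb4, and Ndufb4 and Ndufb2.

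Core and accessory subunits had like medians on this scale, 46.1 and 45.7 CPM per kilobase of exon. The order depended on the length used, because some genes have long annotated exons and short reading frames. Merged exons of Ndufb2 add to 5628 bases for 315 coding bases, and those of Ndufab1, the mitochondrial acyl carrier protein, to 6883 for 468. Per kilobase of coding sequence Ndufab1 moved from place 33 to place 11 of 36, with 158 ± 13.95 CPM per kilobase, and Ndufa13 led at 330 ± 40.9. Ndufb4 was then last at 33.7 ± 3.44, and the medians were 108 CPM per kilobase for core and 133 for accessory subunits.

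**Figure D1:**
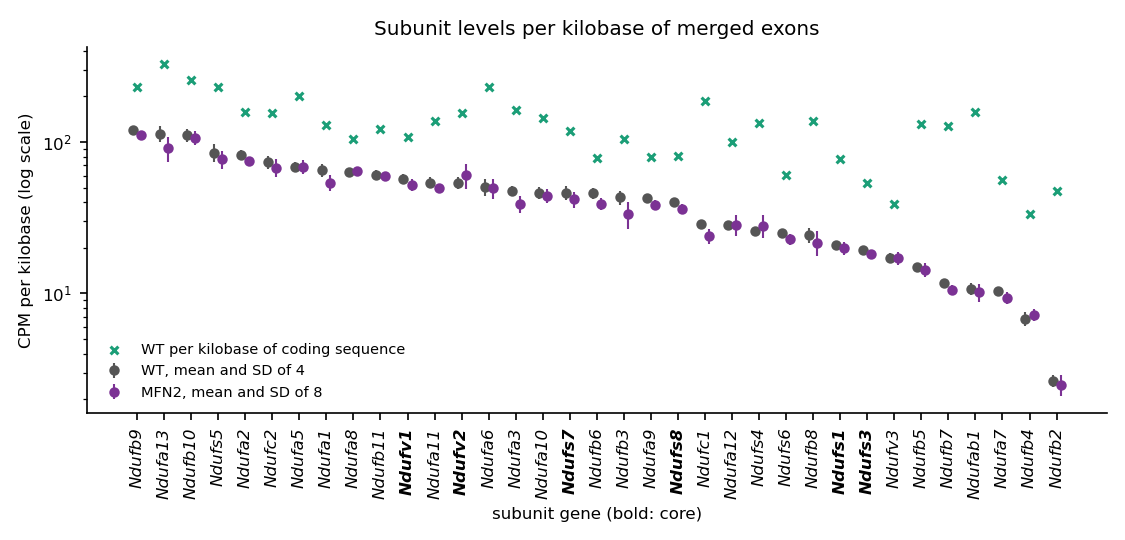
Level of single subunit genes in CPM per kilobase of merged exons (log axis), with the mean and SD of 4 WT libraries (grey) and 8 MFN2 libraries (purple), and the WT mean per kilobase of coding sequence (crosses), with core genes in bold. WT levels run from 2.65 for Ndufb2 to 120 for Ndufb9, and the crosses show how far the order depends on the length used.

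Whether complex I transcripts differ between the genotypes was asked in a fit of all 15942 genes that passed the filter. Most subunits lay slightly lower in MFN2 mice, and no single subunit passed the test. Of the 36 subunits, 0 passed a false discovery rate (FDR, Benjamini-Hochberg) of 0.05 by the quasi-likelihood test of edgeR, where 0% of all genes did. Unadjusted p fell under 0.05 for 7 subunits (19.4%), all of them lower and all accessory, against 15% of all genes in either direction and 7.57% in the lower direction. Accessory genes are 29 of the 36 subunits, so the class of these 7 is not read further. DESeq2 called 0 subunits as well, where it called 200 of the 15942 genes. The log2 fold change was negative for 31 of 36 subunits (86.1%), against 49.2% of all genes. Its median was -0.11 over the subunits and 0.0038 over all genes.

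Core and accessory genes had close medians in this comparison. Median log2 fold changes were -0.10 for the 7 core and -0.11 for the 29 accessory subunits, with 6 and 25 of them lower. Among the accessory subunits, the medians were -0.02 for the 7 of the NADH-oxidising (N) module, -0.07 for the 2 of the ubiquinone-reducing (Q) module, -0.14 for the 9 of the proximal membrane arm and -0.09 for the 11 of the distal membrane arm. Without library 43 these module medians were 0.02, -0.04, -0.09 and -0.04, so that of the N module turned in sign, and the core and accessory medians were both -0.08. Summed over the 36 genes, the level averaged 2538 CPM in MFN2 mice (SD 203, n = 8) against 2690 CPM in WT mice (SD 159, n = 4), a difference smaller than either SD. Without library 43 the MFN2 mean was 2605 CPM (SD 81.2, n = 7), and the difference was then larger than the MFN2 SD but smaller than the WT SD. No subunit had genotypes that did not overlap, which 2.04% of all genes had. Without library 43, 27 subunits were lower and the median was -0.08, with 0 at FDR 0.05 and 12 at an unadjusted p under 0.05 (33.3%, all genes 21.2%), of which 11 were lower (30.6%, all genes 10.4%). Without WT library 46, which held the highest value of 13 subunits, 25 were lower and the median was -0.07 against 0.0044 over all genes. There 2 subunits were at an unadjusted p under 0.05, a count given without the share of all genes and not read further. With scaling by library size in place of TMM, 25 were lower, and the median was -0.06 against 0.05 over all genes.

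**Figure D2:**
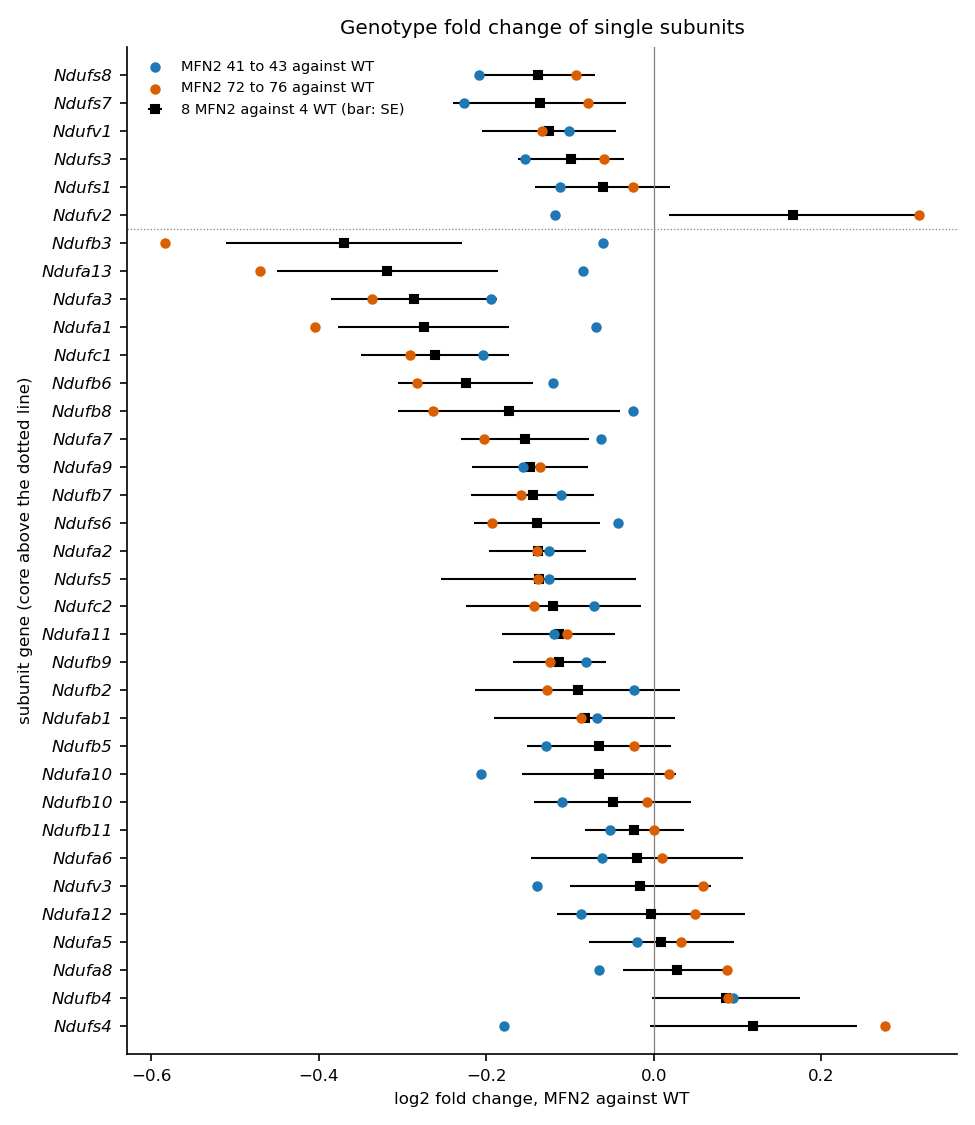
Log2 fold change of single subunits in MFN2 against WT mice, from the fit of all 12 libraries (black squares, bars 1 SE), from MFN2 libraries 41 to 43 against WT (blue) and from MFN2 libraries 72 to 76 against WT (orange). Core genes stand above the dotted line, and most of the black squares lie left of 0.

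Among the core subunits, Ndufv1, which binds NADH and the flavin, was at 138 ± 13.0 CPM in MFN2 and 150 ± 10.5 CPM in WT mice (log2 fold change -0.13 ± 0.08, SE, FDR 0.451). Ndufs1, which carries several iron-sulfur clusters, was at 162 ± 15.9 and 169 ± 5.67 CPM (log2 fold change -0.06, and -0.01 without library 43). Ndufv2, which holds a cluster near the flavin, had the largest positive change of all subunits, 0.17 ± 0.15 (SE, FDR 0.582). Without library 43 it was 0.25 ± 0.08 (SE, unadjusted p = 0.00675 and FDR 0.128 by edgeR), the 1 higher subunit among the 12 at an unadjusted p under 0.05. It rested on the libraries numbered 72 to 76, as described further on.

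Core subunits of the Q module pass the electrons on to ubiquinone. Of these, Ndufs3 was at 39.6 ± 2.52 CPM in MFN2 and 42.4 ± 2.22 CPM in WT mice. Ndufs7, the bearer of the last cluster before ubiquinone, was at 72.1 ± 8.71 and 79.2 ± 8.32 CPM, and Ndufs8 at 46.8 ± 3.63 and 51.5 ± 1.87 CPM. These 3 had log2 fold changes of -0.10 to -0.14 with FDR values of 0.353 to 0.518 in the same edgeR test, and without library 43 the value of Ndufs7 went from -0.14 to -0.08. For Ndufs8, 7 of 8 MFN2 libraries lay below all 4 WT libraries, the exception being library 76. The share of all genes with such a count is not given here.

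The 8 accessory subunits with the lowest unadjusted p were all lower in MFN2 mice, with FDR values from 0.278 to 0.339 in the edgeR test. For 7 of the 8, 6 of 8 MFN2 libraries lay below every WT library, and for Ndufa1 it was 5. These subunits were picked by p in the same libraries, so such counts follow in part from the choice. They are given without the share of all genes and not read further. Ndufc1, a small membrane subunit, read 40.0, 40.0 and 30.4 CPM in MFN2 libraries 41, 42 and 43 and 31.4, 38.0, 31.3, 36.1 and 38.4 CPM in libraries 72 to 76. In WT libraries 44 to 47 it read 39.8, 42.2, 44.4 and 44.8 CPM. In the first MFN2 run library 43 alone lay under the WT range, in the second all 5 did, and the genotypes met only at WT library 44, which libraries 41 and 42 passed by a small margin. The log2 fold change was -0.26 ± 0.09 (SE, FDR 0.278).

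Ndufb3, a small subunit of the distal membrane arm, had the largest negative log2 fold change, -0.37 ± 0.14 (SE, FDR 0.285). It read 28.4, 36.3, 34.4 and 32.3 CPM in WT libraries 44 to 47 and 32.9, 32.7 and 27.9 CPM in MFN2 libraries 41 to 43. In MFN2 libraries 72 to 76 it read 22.1, 19.6, 21.6, 22.9 and 23.5 CPM. The first MFN2 run lay within or just under the WT range and the second lay wholly below both, so the genotype value comes from the second run. Ndufa13, which is needed for assembly of the membrane arm, followed the same course: 125 to 164 CPM in WT, 140, 157 and 102 CPM in libraries 41 to 43, and 101 to 105 CPM in libraries 72 to 76 (log2 fold change -0.32 ± 0.13, SE). Here library 43 sat with the second run.

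Ndufa1, an X-linked membrane subunit of the proximal arm, read 23.8 to 30.6 CPM in WT, 25.2 to 26.5 CPM in libraries 41 to 43 and 18.9 to 22.1 CPM in libraries 72 to 76. Its log2 fold change was -0.27 ± 0.10 (SE). Ndufa3, another proximal membrane subunit, was at 39.8 ± 5.19 CPM in MFN2 and 48.6 ± 3.53 CPM in WT mice, and Ndufb6, of the distal arm, at 25.8 ± 2.34 and 30.1 ± 2.47 CPM. In the first run, libraries 42 and 43 fell below the WT range for Ndufa3 and library 43 alone for Ndufb6. Ndufa2, a subunit of the N module, was at 42.9 ± 1.71 and 47.2 ± 3.42 CPM, and Ndufa9, a nucleotide-binding subunit of the Q module, at 81.1 ± 6.27 and 89.8 ± 5.22 CPM. Their log2 fold changes, -0.14 and -0.15, came with -0.13 and -0.14 in the first and second MFN2 run for Ndufa2, and -0.16 and -0.14 for Ndufa9. Without library 43 the first-run values were -0.08 for Ndufa2 and -0.07 for Ndufa9.

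**Figure D3:**
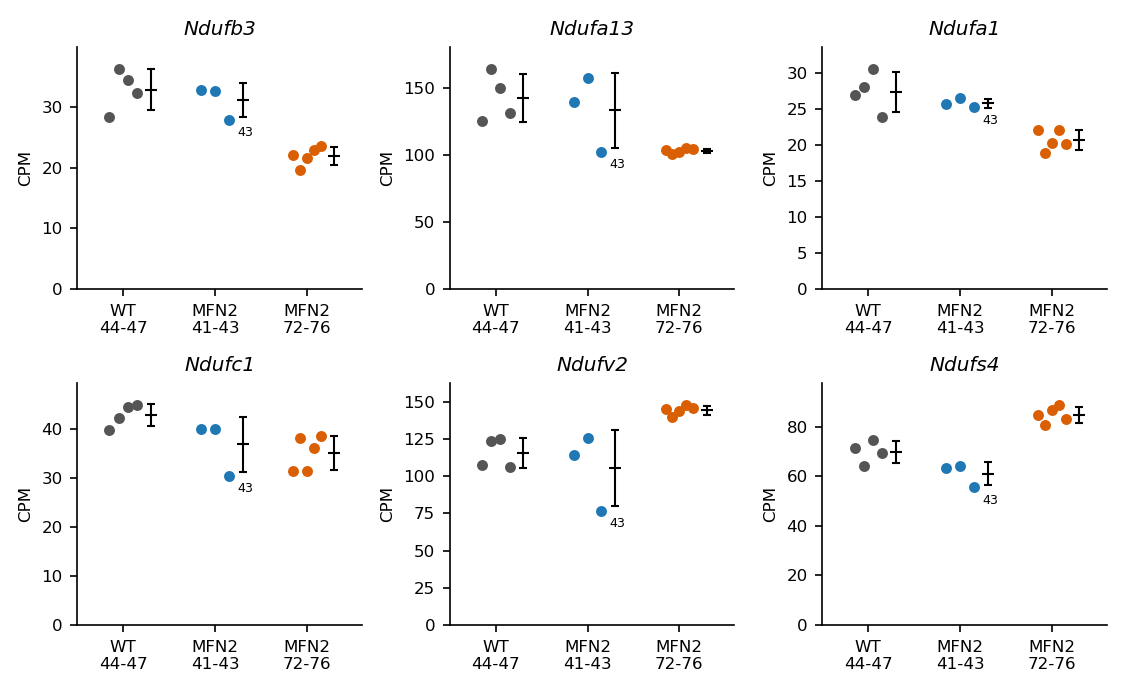
CPM of 6 subunits in each library of WT (grey), MFN2 41 to 43 (blue, library 43 marked) and MFN2 72 to 76 (orange), with mean and SD beside the points and axes from 0. Ndufb3, Ndufa13 and Ndufa1 are lower in libraries 72 to 76 than in every WT library, and Ndufv2 and Ndufs4 are higher.

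Library 43 shaped the first MFN2 run. It held the lowest value of the 12 libraries for 24 of 36 subunits, it lay below all 4 WT libraries for 29, and 35 were below their WT mean. The mean over the subunits of log2 CPM minus the WT mean was -0.34 in library 43, -0.05 in library 41 and 0.01 in library 42. In the WT libraries it ran from -0.08 to 0.09 and in libraries 72 to 76 from -0.16 to -0.05. Core subunits in library 43 averaged -0.40 and accessory subunits -0.33. Ndufa7, an N module subunit, ran against this and was highest in library 43, at 20.4 CPM against 15.8 to 17.8 CPM in the other MFN2 libraries. The part of the forebrain, Hox and other markers of library 43 in these values was not tested.

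**Figure D4:**
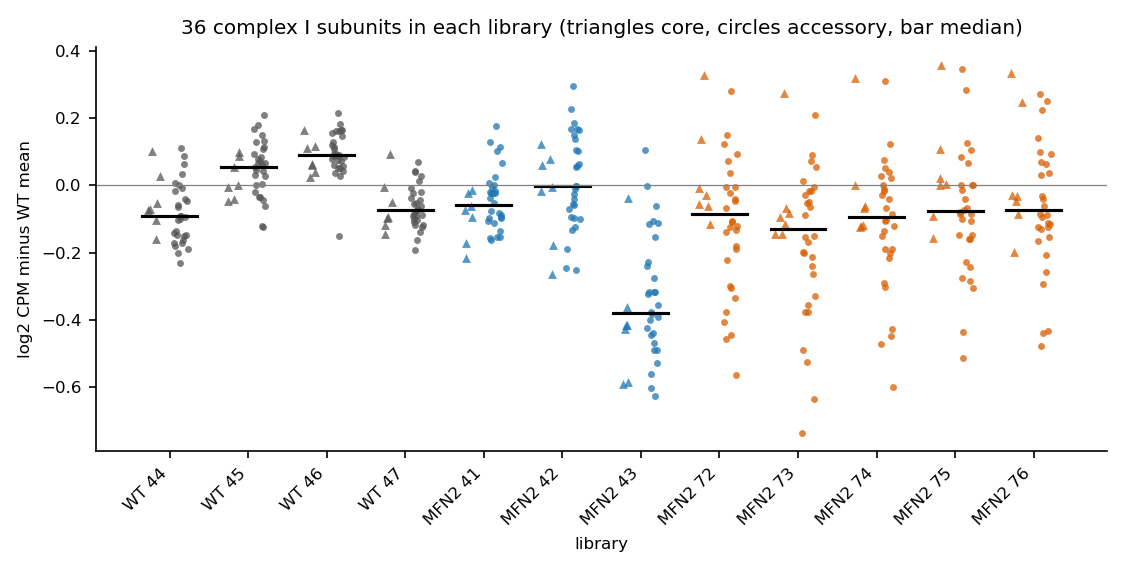
Log2 CPM minus the WT mean for each of the 36 subunits in each library (triangles core, circles accessory, bar the median), in WT (grey), MFN2 41 to 43 (blue) and MFN2 72 to 76 (orange). Library 43 lies low as a whole, with 35 subunits under 0, whereas libraries 72 to 76 keep medians near the lower WT libraries but spread widely both ways.

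MFN2 libraries 41 to 43 against the same 4 WT libraries gave 35 of 36 subunits with a negative log2 fold change, where 50.3% of all genes had one, and a median of -0.11. No subunit passed FDR 0.05 in that edgeR fit (0.00658% of all genes did, 1 of 15200) and 0 had an unadjusted p under 0.05, against 7.12% of all genes. Without library 43, libraries 41 and 42 left 21 of 36 subunits lower with a median of -0.02. With the number run as a covariate, which rests on the same first-run libraries, 35 subunits were lower with a median of -0.12 and 0 at FDR 0.05.

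MFN2 libraries 72 to 76 against the same WT libraries gave 10 subunits at FDR 0.05, 27.8% of the 36, against 23.8% of all genes, so the share lay near that of all genes. Of the 36, 16 had an unadjusted p under 0.05 (all genes 37.8%) and 25 were lower at any p (69.4%, all genes 50.2%). In that fit 8 subunits were lower (22.2%, all genes 12.7%) and 2 were higher (5.56%, all genes 11.1%). The 8 lower ones were all accessory, 7 of them of the membrane arm: Ndufb3 (log2 fold change -0.58 ± 0.08, SE, FDR 0.000622), Ndufa13 (-0.47), Ndufa1 (-0.40), Ndufa3 (-0.34), Ndufc1 (-0.29), Ndufb6 (-0.28) and Ndufb8 (-0.26), with Ndufa7 (-0.20) of the N module. Accessory genes make up 29 of the 36 subunits, 9 of them of the proximal and 11 of the distal membrane arm. No contrast of classes can therefore be read from these counts. The 2 higher ones belong to the N module: Ndufv2 (0.32 ± 0.06, SE, FDR 0.00241) and Ndufs4 (0.28 ± 0.05, SE, FDR 0.0033). The number called was 7 to 15 when single libraries were left out, with 7 (19.4%) without WT library 46 (all genes 16%) or MFN2 library 72 (all genes 19.7%) and 15 (41.7%) without WT library 44 (all genes 28.9%). DESeq2 called the same 10 (27.8%, all genes 27%), and scaling by library size gave 8 (22.2%, all genes 26.5%), of which 7 were among them. With that scaling 5 were lower and 3 higher, 21 of 36 were lower at any p, and the median was -0.03 in place of -0.10, so the split by direction depended on the scaling. Called in each of the fits that left out 1 library were 7 subunits: Ndufb3, Ndufa13, Ndufa1, Ndufc1, Ndufb6, Ndufv2 and Ndufs4.

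Ndufs4, an accessory subunit of the N module whose loss in mice causes a fatal encephalopathy, read 71.6, 64.1, 74.5 and 69.5 CPM in WT libraries 44 to 47. It read 63.5, 64.1 and 55.7 CPM in MFN2 libraries 41 to 43 and 84.9, 80.7, 86.6, 88.8 and 83.1 CPM in MFN2 libraries 72 to 76. The second run lay above every other library, while 2 of the 3 first-run libraries lay below the whole WT range. Ndufv2 read 107, 124, 125 and 106 CPM in WT, 114, 126 and 76.9 CPM in MFN2 libraries 41 to 43, and 145, 140, 144, 148 and 146 CPM in MFN2 libraries 72 to 76. Again the second run stood above all others without overlap. In all, 8 subunits did not overlap between libraries 72 to 76 and WT (22.2%, all genes 19.8%).

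Within MFN2 mice, libraries 72 to 76 were tested against libraries 41 to 43 in a fit that kept WT as a group of its own. This asks how far subunits differ between number runs when genotype does not. At FDR 0.05, 3 subunits differed, 8.33% of 36 against 8.4% of all genes (4.61% lower and 3.79% higher). Ndufs4 was higher in the second run (0.47 ± 0.07, SE, FDR 0.00472), and Ndufb3 (-0.51 ± 0.09, SE, FDR 0.0116) and Ndufa1 (-0.32 ± 0.08, SE, FDR 0.0412) were lower. At any p 15 of 36 were lower, against 49.5% of all genes, and 8 had an unadjusted p under 0.05, against 28.7%. Ndufb3 moved the most of all subunits and Ndufs5, a proximal arm subunit, the least (0.0019). Without library 43 the count was 6 (16.7%, all genes 14%), with Ndufa13 and Ndufb8 lower and Ndufv2 higher in addition. Ndufs4 and Ndufb3 were called in every fit that left out 1 MFN2 library.

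Core and accessory subunits, with close medians over all 12 libraries, stood in opposite order in the number runs. The core mean minus the accessory mean of log2 CPM, each relative to WT, was -0.06, -0.04 and -0.08 in MFN2 libraries 41, 42 and 43, and 0.16, 0.13, 0.10, 0.12 and 0.10 in libraries 72 to 76. In WT libraries 44 to 47 it was 0.04, -0.03, -0.01 and 0.00. The runs did not overlap, and the WT libraries lay between them. In libraries 72 to 76 the core subunits averaged 0.0029 ± 0.0394 (SD, n = 5) from the WT mean and the accessory subunits -0.12 ± 0.04, with -0.02 in the N module, -0.05 in the Q module, -0.19 in the proximal and -0.14 in the distal membrane arm. The core mean includes Ndufv2, the only core gene called in that run. By the fit, 5 of 7 core genes were lower there, with a median log2 fold change of -0.06. These values describe the libraries and were not tested.

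**Figure D5:**
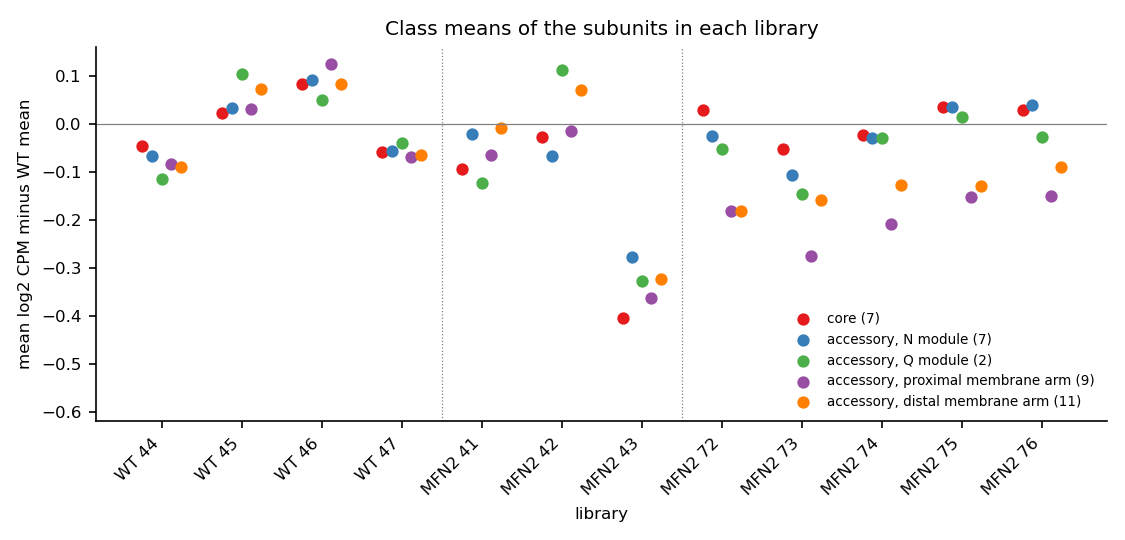
Mean log2 CPM minus the WT mean for the core subunits and for the accessory subunits of each module, in each library, with dotted lines between WT, MFN2 41 to 43 and MFN2 72 to 76. In libraries 72 to 76 the membrane arm classes lie below the core in every library, whereas in library 43 all 5 classes lie between -0.28 and -0.40.

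Gene length moved with these values. The merged exons of the subunits have a median of 1644 bases (core 2178, accessory 1251) against 4275 for all genes tested, and 27 of the 36 fall among the shortest 25% of genes (up to 2644 bases). In the fit of all libraries, the median log2 fold change of all genes went from -0.03 in the shortest 25% to 0.04 in the longest. Among the shortest, 23 of 27 subunits were lower, with a median of -0.13, against 53.9% of all genes there. After a length trend was removed from each library, 25 of 36 subunits were lower, the median was -0.08 against 0.01 over all genes, and 3 had an unadjusted p under 0.05 (8.33%, all genes 14.4%). Libraries 72 to 76 against WT then gave 9 subunits at FDR 0.05 (25%, all genes 22.6%), of which 8 were among the 10 called without that step. The part of length in the results was not tested further.

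Cell type markers in libraries 72 to 76 differed from WT as well. In libraries 72 to 76 the 6 microglial markers summed to 130 to 162 CPM against 168 to 218 CPM in WT, with 6 of 6 lower at FDR 0.05, where 12.7% of all genes were. The 6 astrocyte markers, led by Slc1a2, summed to 4963 to 6380 CPM against 6774 to 7751 CPM in WT, with 4 of 6 lower at FDR 0.05. Between the runs within MFN2 mice, 3 of 6 microglial and 0 of 6 astrocyte markers passed FDR 0.05, against 8.4% of all genes. Neuronal markers, led by Snap25, overlapped, at 2837 to 3274 CPM against 3023 to 3461 CPM, and 2 of the 6 passed FDR 0.05 against WT, Snap25 lower (log2 fold change -0.18, FDR 0.0414) and Syt1 higher (0.47, FDR 0.0327). Skeletal muscle markers, led by Myh4, reached 205 CPM in library 73 and 211 CPM in WT library 47, against 2.03 to 37.7 CPM elsewhere, and red cell markers, led by Hbb-bs, ran from 68.1 to 333 CPM. Their part in the values of the subunits was not tested.

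Assembly factors and the other respiratory complexes gave the setting. Of the 8 assembly factors 6 were lower and 0 passed FDR 0.05 over all libraries (median -0.13). Without library 43, 5 were lower and the median was -0.06. Ndufaf8, a small partner of the arginine hydroxylase Ndufaf5, was at 8.80 ± 1.24 CPM in MFN2 and 11.5 ± 1.22 CPM in WT mice (log2 fold change -0.38, FDR 0.262). For it 7 of 8 MFN2 libraries lay below all WT libraries, a count given without the share of all genes. Against WT, libraries 72 to 76 gave Ndufaf8 lower (FDR 0.00241) and Ndufaf4 higher (FDR 0.00178), 2 of 8 or 25%, near the 23.8% of all genes. The levels of Ndufaf1 to Ndufaf8 ran from 6.03 (Ndufaf6) to 33.4 CPM (Ndufaf2) in WT. Ndufa4, once counted in complex I and now placed in complex IV, read 48.2 to 51.1 CPM in MFN2 libraries 41 to 43 and 63.5 to 68.3 CPM in libraries 72 to 76, with 50.5 to 60.7 CPM in WT. It differed between the runs within MFN2 mice (0.42 ± 0.07, SE, FDR 0.0067). Ndufa4l2, its hypoxia-related relative, was near 1 CPM in both genotypes (1.20 ± 0.516 and 1.04 ± 0.409).

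Nuclear genes of the other complexes had negative medians as well in the fit of all libraries. The list of complex IV includes Ndufa4, and that of complex V an inhibitor of ATP synthase that is not a subunit. Both of these were higher in MFN2 mice in this fit. Median log2 fold changes were -0.11 for 4 genes of complex II, -0.09 for 9 of complex III, -0.17 for 11 of complex IV and -0.12 for 18 of complex V, with 4, 7, 9 and 13 lower and 0 at FDR 0.05 in each. Without library 43 the medians were -0.08, -0.07, -0.19 and -0.10. Together 17 of these 42 genes had an unadjusted p under 0.05 (40.5%), all lower, against 15% of all genes and 7.57% in the lower direction, and 6 had genotypes that did not overlap (14.3%, all genes 2.04%). With scaling by library size 10 of the 42 had an unadjusted p under 0.05, 9 lower and 1 higher (23.8%, all genes 16.2%), and without library 43 it was 22, 18 lower and 4 higher (52.4%, all genes 21.2%). In libraries 72 to 76 against WT, 24 of the 42 passed FDR 0.05 (57.1%, all genes 23.8%), 19 lower and 5 higher. Without library 43, 1 of the 42 passed over both runs (2.38%, all genes 0.12%). Of 11 further assembly genes of complex I 7 were lower, with a median of -0.04 (-0.02 without library 43) and 0 at FDR 0.05. Atp5j2 of ATP synthase had the lowest p of these genes (68.6 ± 3.67 CPM in WT, 55.8 ± 1.60 CPM in MFN2 mice, FDR 0.162), and in complex IV it was Cox4i1 (303 ± 23.4 and 249 ± 17.2 CPM, FDR 0.254). Of 10 regulators of mitochondrial genes, 7 were higher over all libraries with a median of 0.07. In libraries 72 to 76 against WT 8 were higher (median 0.09). In libraries 41 to 43 against WT 6 were lower (median -0.04), as were 6 with the number run as a covariate (median -0.06). Esrra, an estrogen-related receptor, was at 29.1 ± 3.17 CPM in WT and 23.4 ± 3.49 CPM in MFN2 mice (log2 fold change -0.32, FDR 0.278). Ppargc1a, the coactivator PGC-1α, was at 80.0 ± 7.84 and 84.3 ± 9.25 CPM. For mouse Mfn2 itself no difference was detected, at 213 ± 15.2 CPM in WT and 206 ± 12.8 CPM in MFN2 mice (difference of mean log2 CPM -0.05, two-sided exact permutation p = 0.43 over 495 splits, the smallest possible being 0.00202), and its sign turned with scaling by library size (0.003). These counts are of the mouse gene and do not check the human transgene.

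Promoters of the subunits were read for short motifs of factors known to bind genes of oxidative phosphorylation. RefSeq windows on GRCm38.p6, from 250 bases before to 50 after an annotated start, were matched by symbol for 32 of the 36 subunits, and both strands were searched. The NRF1 motif GCGCANGCG was in the windows of 8 of 32 subunits (25%), against 7.03% of all 27025 genes with a window. All 8 were accessory, as were 27 of the 32 subunits with a window, so that no contrast with the 5 core genes can be read from it. Stretches holding it are shown to make the shared letters visible, with the motif or its reverse complement in capitals, read 5′ to 3′ on the strand of the gene (plus for Ndufa11, minus for the others):
Ndufa5, chr6:24527698-24527726: tgtgtgagctGCGCAGGCGcaaatctacc
Ndufa6, chr15:82354249-82354277: cgtggcaccgCGCGTGCGCacgctgaagg
Ndufa8, chr2:36049329-36049357: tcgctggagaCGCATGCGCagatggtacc
Ndufa11, chr17:56717692-56717720: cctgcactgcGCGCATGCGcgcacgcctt
Ndufb4, chr16:37654372-37654400: cctcatatccGCGCAGGCGcagatgtgcg
Ndufb10, chr17:24724407-24724435: tcacctttctGCGCAGGCGtagaggtccc
Ndufs5, chr4:123718266-123718294: gctgcttgctGCGCAGGCGcagacccgct
Ndufs6, chr13:73328479-73328507: gactgctgtgCGCCTGCGCcggcacttgg

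The YY1 motif AANATGGCG was in the windows of 7 of 32 subunits (21.9%), against 2.76% of genes. Among them were Ndufc1, with the lowest unadjusted p between genotypes, the core subunit Ndufs7, and Ndufs4, which differed between the runs. The rest were Ndufa7, Ndufa9, Ndufb11 and Ndufs6. Ndufc1 was lower in MFN2 mice, Ndufs4 was higher in libraries 72 to 76, and Ndufb11 changed little (log2 fold change -0.02 over all libraries). A link of motif and change was not tested. For Ndufc1, Ndufs4 and Ndufs7 the motif is again in capitals (plus strand for Ndufs7, minus for Ndufc1 and Ndufs4):
Ndufc1, chr3:51408915-51408943: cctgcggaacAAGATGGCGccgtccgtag
Ndufs4, chr13:114388045-114388069: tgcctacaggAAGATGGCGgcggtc
Ndufs7, chr10:80249463-80249491: ggccgaggccAAGATGGCGgcgctggcgg
The ETS motif CCGGAAG was found in 4 of 32 (12.5%, all genes 9.93%), the Sp1 motif GGGCGG in 15 (46.9%, all genes 38.2%) and the motif of estrogen-related receptors TNAAGGTCA in 1, Ndufb4 (3.12%, all genes 1.43%). Matches describe the letters only. The windows of Ndufb3 and Ndufa13, the subunits that moved most in libraries 72 to 76, held neither the NRF1 nor the YY1 motif.

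Counts of some subunits are uncertain. Processed pseudogenes or, for Ndufb9, a coding locus at least 90% identical to part or all of the coding sequence were found for 14 subunits. Ndufb4c, identical to Ndufb4 over 387 bases, took counts equal to 15% of those of Ndufb4, and Gm15920 took 7.81% of those of Ndufa12. For Ndufs5 the share was 1.74% and for Ndufab1 1.04%, for Ndufs3 0.845%, for Ndufb11 0.128%, and copies of Ndufb3, Ndufb9 and Ndufc1 were not analysed here. The remaining copies, of Ndufa7, Ndufa11, Ndufb2, Ndufb7 and Ndufs6, took 0.03% to 0.667%. Exons of 14 subunits overlap a gene on the opposite strand, among them Ndufa13 (375 bases with Tssk6) and Ndufb6 (257 bases with Smim27), both with partners of few counts. For Ndufb2 the partner on the opposite strand, with which it shares 146 bases, held 39195 counts over all libraries against 3901 of Ndufb2. Since the strand setting of the counting is not given in the sources used here, reads of such pairs may not have been told apart.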

How the data were processed

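Raw gene counts deposited by the authors for 12 libraries, 1 per mouse, were used as they stood. Per the labels and methods, reads were aligned with STAR to GRCm38.p6. The counting tool and strand setting are not given in the sources used here, and the kit is named differently in the labels (mRNA) and the methods (total RNA). Counts were scaled by TMM and fitted with edgeR 4.0.16 (R 4.3.3; quasi-likelihood, robust) over genes above 1 CPM in at least 3 libraries, with no covariate, Benjamini-Hochberg adjustment and an FDR of 0.05. Standard errors were derived from the F statistic. A prior count of 2 was used for log2 CPM values and for the length trend. Alternatives used DESeq2 1.42.0, limma 3.58.1, other scalings and filters, a lowess length correction (span 0.3), number runs and each library left out. Merged exons came from GENCODE M21. The fits were also run on simulated counts with a genotype effect only, and the outcome is not given here. Those counts held no number-run difference and no outlying library, so they do not show how the fits behave on these data. No libraries within a genotype agreed within sampling noise. P-values measure the spread between mice. Members, modules, gene lists and tests were chosen with earlier results of these data known. Single subunits were named by rule: core genes, the 8 accessory genes of lowest p, those called, extremes of level and change, and those with copies. Ndufaf, Ndufa4 and list genes were given by value, lowest p or level. Some genes that entered the counts and sums are not reported here by name. Ndufa6 was counted with the N module. Ndufs4 and other second-run subunits were named after their values were seen.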

Additional observations from a re-analysis of the deposited data

Results flagged for a closer look

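MFN2 library 43 lay far from the other 7 MFN2 libraries for several subunits, judged by the gap to its nearest neighbour as a share of the spread from lowest to highest. The ratio was 0.567 for Ndufa11, 0.715 for Ndufa6, 0.570 for Ndufab1, 0.627 for Ndufb10, 0.642 for Ndufs1, 0.665 for Ndufs7, 0.592 for Ndufs8 and 0.527 for Ndufv2, where library 43 was lowest. It was 0.547 for Ndufa7, where library 43 was highest, and 0.530 for the mean of the subunits, where it was lowest. Ndufs6 was highest in library 41 at 24.3 CPM, with a ratio of 0.557. Of 76 groups examined 11 stood out, 10 of them through library 43, where chance gives about 1 in 20, or 3.8. The subunits share each library, so these are not separate events.

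The difference from the same WT libraries was not the same in MFN2 libraries 72 to 76 as in 41 to 43 for 3 subunits in the edgeR test between the runs. The later run minus the earlier was -0.32 for Ndufa1, -0.51 for Ndufb3 and 0.47 for Ndufs4 on the log2 scale.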

How the results depend on the processing

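Across 12 fits that each left out 1 library, 0 subunits passed FDR 0.05 in MFN2 against WT and 25 to 33 were lower. The median log2 fold change was -0.13 to -0.07, and the Mfn2 difference was -0.09 to -0.01. In these fits 2 to 12 subunits had an unadjusted p under 0.05. The 12 came without library 43, where 21.2% of all genes did, and the share of all genes in the other fits is not given here. Libraries 72 to 76 alone gave 10 subunits at FDR 0.05. Unadjusted p was under 0.05 for 0 subunits in the first run, 1 in the first run without library 43 (2.78%, all genes 5.72%), 16 in the second run, 4 with the run as a covariate (11.1%, all genes 14.9%) and 3 with length removed. Between runs within MFN2 the count of 3 became 5 by DESeq2 (13.9%, all genes 15.9%) and 2 to 6 with single libraries left out (6 without library 43), where all genes ran from 3.16% to 14%. The second-run count ranged from 7 to 15, and that of all genes from 15% to 28.9%. WT medians per kilobase became 68.1 (core) and 60.5 (accessory) by longest transcript and 108 and 133 by coding length. DESeq2 called 200 of 15942 genes and 0 of 36 subunits between genotypes, a share of all genes so small that 0 of 36 lies near it.

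Some values changed sign, among them those of Ndufv2, Ndufb3 and Ndufa13, and the cause was not tested. By library size they were Mfn2 0.003, Ndufb10 0.0046, Ndufa12 0.048 and Ndufb11 0.0271. Ndufa12 was 0.0057 by upper-quartile scaling, 0.0031 by DESeq2 and 0.0038 with CPM above 1 in all libraries. With length removed Ndufb10 was 0.0124, Ndufa12 0.0588 and Ndufb11 0.0209. In the second run Ndufa12 was 0.05 and Ndufb11 0.0004. Ndufv2 was -0.1177 in the first run and -0.1308 with the run as a covariate. With single libraries left out, Ndufa12 ran from -0.0477 to 0.0454, Ndufb10 from -0.1037 to 0.008 and Ndufb11 from -0.0678 to 0.0142. In the first run without library 43, an alternative chosen after seeing the data, values were Ndufs1 0.0139, Ndufv1 0.0259, Ndufb3 0.0074, Ndufa13 0.0688, Ndufb10 0.0225, Ndufb2 0.1557, Ndufs5 0.0599, Ndufa12 0.0374 and Ndufab1 0.1218. The second-run alternatives were also added then. Apart from the fits that left out single libraries, 41 values for the main comparisons and 253 for single subunits and counts kept direction and call. A further 6 and 5, all counts or levels given above, moved by more than 1.5 times or the spread between replicates, and 8 of the single subunits recomputed in this way (of the 10 called there) passed FDR 0.05 in the second run against WT but not over all libraries.

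No paired analysis was possible because the genotypes share no library numbers. The WT group holds 4 mice, the number run and genotype cannot be told apart in libraries 72 to 76, and all comparisons with WT use the same 4 libraries. Depth was similar between groups and does not separate changes this small from the spread between mice.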
